A study of Homo sapiens with 4 samples.

Results

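The contacts described here lie in 3 stretches of the genome known from neuroblastoma susceptibility studies, around LMO1 on chromosome 11, LIN28B with its neighbour HACE1 on chromosome 6, and BARD1 on chromosome 2. Members were all anchor pairs with an anchor midpoint in 8000000-8500000 on chromosome 11, 105000000-105800000 on chromosome 6 or 215400000-215900000 on chromosome 2 (hg19, as are all positions below unless another build is named). Of 720049 listed pairs, 875 had an anchor in the LMO1 window, 305 in the LIN28B window and 34 in the BARD1 window, and these windows held 25, 13 and 2 of 39507 anchors. An anchor is a stretch of DNA between which joined fragments were counted, and a paired-end tag (PET) is 1 sequenced junction between a pair of anchors. The junctions came from SMC1 ChIA-PET, in which DNA held together by the cohesin subunit SMC1 is immunoprecipitated, ligated and sequenced from both ends. Both groups were Kelly neuroblastoma cells, a single established line, that had become resistant to TAE684, which inhibits the kinase ALK, and were kept in 1 µM of the drug. They were infected for 24 h with a short hairpin against BORIS (shBORIS) or with the control construct shLUC and selected in puromycin for 48 h, with 2 libraries per group. Whether the numbers of the shBORIS libraries stand for hairpins or for replicates is not stated in the sources used here. BORIS (CTCFL) shares its DNA-binding zinc fingers with CTCF, and its own level was not analysed here. Each group is 1 deposited table that pools its libraries, so no value below carries a replicate error, and the tests set 1 pool of reads against the other without a measure of the spread within a condition. The tables held 146140 intrachromosomal PETs in shLUC and 163041 in shBORIS. A scaled ratio is the shBORIS count divided by the shLUC count after division by these totals (or by the interchromosomal totals for interchromosomal PETs), with an exact Clopper-Pearson 95% interval in parentheses that covers counting error only.

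LMO1 encodes a LIM-domain protein that binds no DNA itself and bridges transcription factors such as GATA and basic helix-loop-helix proteins through LDB1, and it acts as an oncogene in neuroblastoma. LIN28B encodes an RNA-binding protein that blocks the maturation of let-7 microRNAs, which in turn restrain MYCN. HACE1, its neighbour, encodes an E3 ubiquitin ligase with tumour suppressor activity, and BARD1 encodes the RING-domain partner of BRCA1 in DNA repair. Cohesin extrudes chromatin loops and halts at bound CTCF, so that SMC1 contacts mark both CTCF-anchored loops and contacts between promoters and enhancers.

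Anchors lay at or within 0.6 kb of the starts of LMO1, LIN28B and BARD1. The 250 bases before the starts of these genes are shown as a description, and no contact below was read against them. The sequences are from RefSeq on GRCh38.p14, read in the direction of the gene. They were not placed on the hg19 anchors, since positions were not converted between builds. LIN28B has 2 starts in that table, 16.1 kb apart. The LMO1 stretch is chr11:8268788-8269037 (minus strand), the LIN28B stretches are chr6:104940715-104940964 and chr6:104956857-104957106 (plus strand), and the BARD1 stretch is chr2:214809684-214809933 (minus strand). Capitals mark matches, on either strand, to CACGTG (the canonical E-box), GATAA (the GATA core), TAATTA (a homeodomain core) or GGGCGG (the GC box).
LMO1: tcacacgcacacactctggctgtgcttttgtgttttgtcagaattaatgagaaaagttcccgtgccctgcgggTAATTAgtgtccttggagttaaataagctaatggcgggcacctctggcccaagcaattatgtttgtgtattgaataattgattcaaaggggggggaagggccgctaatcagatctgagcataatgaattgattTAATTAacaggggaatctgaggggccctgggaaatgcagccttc
LIN28B, upstream start: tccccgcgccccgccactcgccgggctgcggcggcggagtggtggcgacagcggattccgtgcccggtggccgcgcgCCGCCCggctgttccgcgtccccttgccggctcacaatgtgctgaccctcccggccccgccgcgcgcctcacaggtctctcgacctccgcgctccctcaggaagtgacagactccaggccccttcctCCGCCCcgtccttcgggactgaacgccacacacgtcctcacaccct
LIN28B, downstream start: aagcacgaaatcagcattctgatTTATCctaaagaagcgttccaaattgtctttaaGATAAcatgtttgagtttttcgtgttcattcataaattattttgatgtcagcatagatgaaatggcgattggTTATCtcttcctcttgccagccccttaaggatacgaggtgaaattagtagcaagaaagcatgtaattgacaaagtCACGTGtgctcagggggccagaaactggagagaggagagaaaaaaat
BARD1: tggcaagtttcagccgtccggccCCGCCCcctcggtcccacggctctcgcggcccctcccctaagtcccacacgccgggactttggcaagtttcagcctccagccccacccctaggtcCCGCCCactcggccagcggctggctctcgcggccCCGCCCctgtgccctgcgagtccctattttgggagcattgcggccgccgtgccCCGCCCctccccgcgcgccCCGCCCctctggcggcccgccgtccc

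The LMO1 stretch was 45.6% G and C with 5 CpG dinucleotides, and it held 2 matches to TAATTA, which 4.35% of the 35116 promoter entries of the table hold in the same stretch. The downstream LIN28B start was poorer still in G and C, at 38.4%, with 3 matches to GATAA (20.4% of entries hold at least 1) and 1 to CACGTG (6.34% of entries). By contrast, the upstream LIN28B start reached 73.6% with 33 CpG dinucleotides and 2 GC boxes. The BARD1 stretch had 75.2% G and C, 27 CpG dinucleotides and 5 GC boxes, and 42.6% of entries hold at least 1. The median entry had 58% G and C. None of the printed stretches matched GGNGGCAG, a part of the CTCF core (13.4% of entries), the longer CTCF core that holds it (0.0513%) or spaced homeodomain half-sites (0.33%). These matches describe letters and no bound sites.

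The LMO1 window was one of dense cohesin contacts, the LIN28B window was near the genome's middle and the BARD1 window was nearly empty. LMO1 had 25 anchors in 500 kb, where 96.1% of windows of that width with an anchor had fewer and the median window had 6. LIN28B had 13 in 800 kb against a median of 9, and BARD1 had 2 in 500 kb against a median of 6. Intrachromosomal PETs numbered 130 in shLUC and 173 in shBORIS around LMO1, 27 and 32 around LIN28B, and 2 and 2 around BARD1. The order of the windows by PETs was thus the same in both tables. The scaled ratio was 1.19 (0.945 to 1.51) for LMO1, 1.06 (0.617 to 1.84) for LIN28B and 0.896 (0.065 to 12.4) for BARD1. Neither of the windows with at least 10 summed PETs passed Fisher's exact test among windows of the same width and phase over the genome (LMO1 unadjusted p = 0.135, adjusted p = 0.685; LIN28B adjusted p = 1). Of all such windows, 0.3% passed at 500 kb and 0.854% at 800 kb. The LIN28B ratio turned to 0.822 (0.328 to 2.03) when both anchors had to lie in the window, on 12 and 11 PETs.

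**Figure D1:**
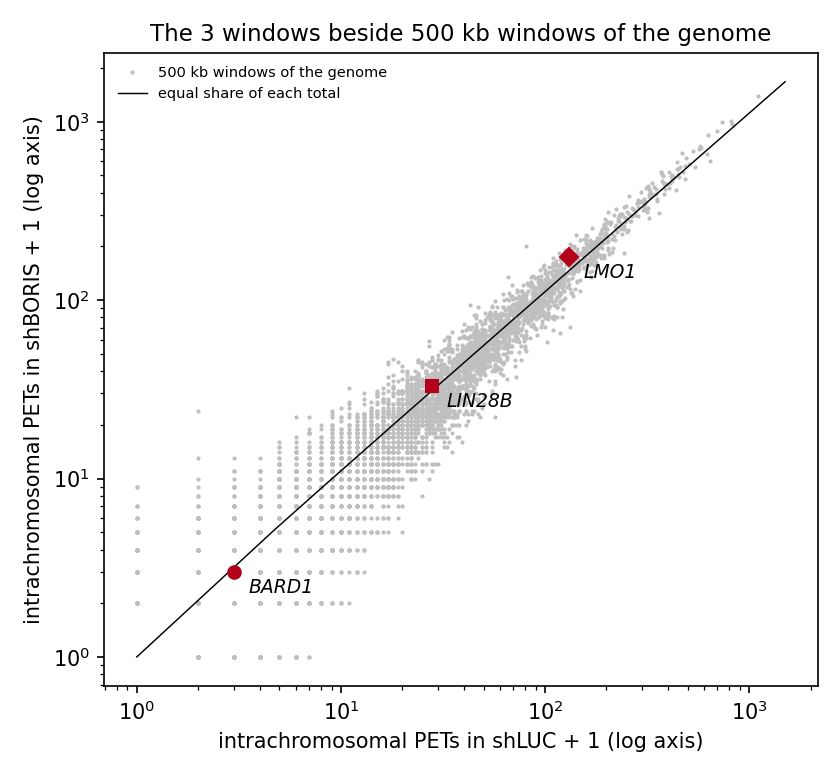
Intrachromosomal PETs of windows in shLUC (x axis) and shBORIS (y axis), each plus 1 on log axes. Grey points are 500 kb windows of the genome, the line marks an equal share of each total, and red symbols mark the LMO1 and BARD1 windows of 500 kb and the LIN28B window of 800 kb. LMO1 lies at 130 and 173 PETs among the dense windows, LIN28B at 27 and 32, and BARD1 at 2 and 2.

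Most PETs of these anchors joined them to anchors on other chromosomes, and whether such PETs arose by random ligation was not tested. Intrachromosomal PETs made up 26.7% of those in the LMO1 window in shLUC and 31% in shBORIS, 17.1% and 18.4% in the LIN28B window, and 12.5% and 10.5% in the BARD1 window, against 33.6% and 36.2% genome-wide. The interchromosomal counts were 357 and 385 for LMO1, 131 and 142 for LIN28B and 14 and 17 for BARD1. Their scaled ratios were 1.09 (0.938 to 1.26), 1.09 (0.854 to 1.39) and 1.22 (0.567 to 2.68). No interchromosomal pair of the LMO1 or LIN28B window had more than 2 PETs summed over the tables, and none of BARD1 had more than 1.

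Around LMO1, called interactions fell into separate neighbourhoods. An interaction is called here when it has 3 or more PETs and the authors' Bayes probability for it is 0.9 or higher. In shLUC 11 of 76 listed intrachromosomal pairs were called, or 14.5%, and in shBORIS 15 of 91, or 16.5%, against 12.9% and 14.1% of all listed pairs. A set on the lower-coordinate side, towards RIC3 and TUB in the RefSeq gene order, linked 7 anchors in shLUC and 6 in shBORIS within the same 94.3 kb, from 8027389 to 8121639. RIC3 encodes a chaperone of nicotinic acetylcholine receptors. The set that holds LMO1 linked 3 anchors over 41.4 kb in shLUC, and in shBORIS 8 anchors over 375.3 kb, with 2 further called contacts between neighbours inside the gene. In shLUC the contact upstream of LMO1 between 8359117-8360475 and 8587639-8588996 stood by itself, and in shBORIS it belonged to the LMO1 set. In neither table did a called interaction join the set from 8027389 to 8121639 to the set that holds LMO1. In shBORIS the LMO1 set reached 8213711-8215151, between them, which had 1 and 3 PETs with 8246553-8248117 inside the gene. Its other called contacts from LMO1 to anchors outside the gene also had few PETs. They were 1 and 4 from 8246553-8248117 to 8587639-8588996, and 0 and 3 from 8283932-8286146 to 8349879-8351288. These shBORIS counts are at or near the minimum of 3 PETs, and each ratio interval includes 1. The sets were not rebuilt at another minimum or at equal depth.

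The strongest contact of the window ran along LMO1 itself. It joined 8246553-8248117, inside the gene close to its 3′ end, to 8283932-8286146, inside the gene 4 kb downstream of its start, across 37.7 kb. LMO1 lies at 8245856-8290182 on the minus strand, and whether these anchors overlap exons was not analysed here. The contact had 9 PETs in shLUC and 12 in shBORIS and was called in both tables. Its scaled ratio was 1.20, with an interval from 0.462 to 3.21 and an adjusted p of 1 in Fisher's exact test. The anchor 4 kb inside the gene also contacted its neighbour at 8286922-8287987 with 3 and 6 PETs (1.79, 0.383 to 11.1), called in both. Both contacts are present in each pool, with ratio intervals that include 1.

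**Figure D2:**
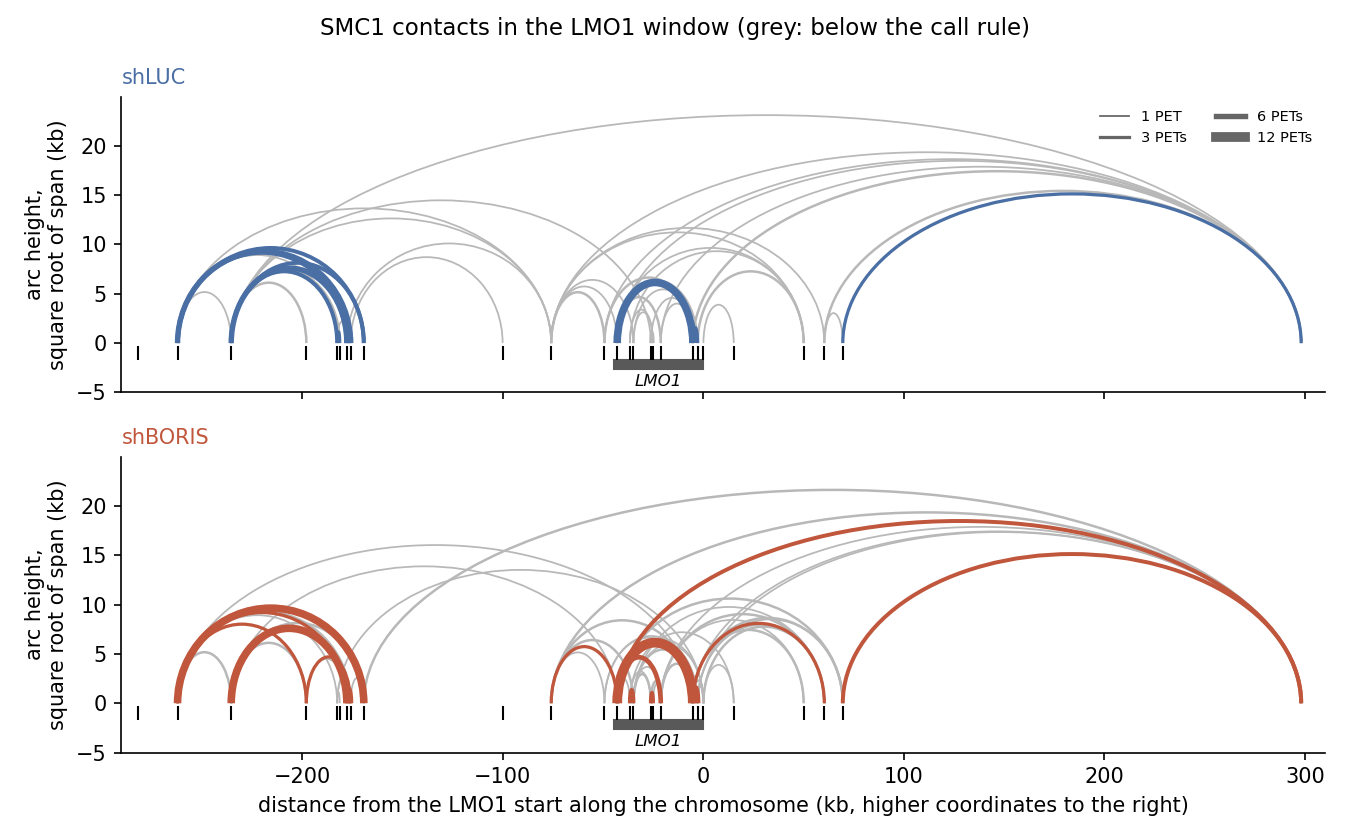
Contacts of the LMO1 window in shLUC (top) and shBORIS (bottom) by distance from the LMO1 start in kb along the chromosome. Each arc is an anchor pair within the plotted range, its width grows with its PETs, coloured arcs were called and grey arcs were not, ticks are the 25 anchors of the window and the bar is LMO1. The arc along the gene is called in both tables, with 9 and 12 PETs, and the arc from the gene to the rightmost partner, with 1 and 4 PETs, is called in shBORIS alone.

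Anchors in LMO1 carried a larger share of the intrachromosomal PETs in shBORIS than in shLUC. The 9 anchors that overlap the gene had 52 PETs in shLUC and 99 in shBORIS, a scaled ratio of 1.71 (1.21 to 2.44). Their interchromosomal PETs numbered 117 and 123, a ratio of 1.06 (0.815 to 1.37). Of the 9 anchors, 8 had the higher scaled intrachromosomal count in shBORIS, against 47% of the 38788 anchors with an intrachromosomal PET. The 9 anchors share contacts with each other. Pairs of the window that touch no LMO1 anchor had 78 and 74 PETs, a ratio of 0.85 (0.61 to 1.18). The ratio within the gene relative to that of the other pairs was 2 (1.23 to 3.27, Fisher's exact test, unadjusted p = 0.00368), a comparison chosen after the values were seen.

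The difference over LMO1 did not pass a test across the genome. In windows of the gene's width over the genome, the LMO1 window held 51 and 95 PETs, since the anchor at the gene's start has its midpoint outside it. Its ratio was 1.67 (1.18 to 2.39), with an unadjusted p of 0.00279 and an adjusted p of 0.37 in Fisher's exact test over 12771 windows. A smaller p was found in 90 of those windows. In all, 0.0313% of them passed and 7.19% had an unadjusted p under 0.05. Among the 427 windows with at least as many PETs, 0.937% had a higher ratio. This test too was added after the values of the gene had been seen.

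At single anchors of LMO1 the counts ran as follows. The anchor 4 kb inside the gene, the one with the most PETs in the window, had 23 in shLUC and 42 in shBORIS, a ratio of 1.64 (0.962 to 2.85), with 29 and 42 interchromosomal PETs. The anchor near the 3′ end had 19 and 33, a ratio of 1.56 (0.86 to 2.9), with 20 and 29 interchromosomal PETs. At 8254617-8256235, in the gene 33.9 kb downstream of its start, the counts were 5 and 16 (ratio 2.87, 1.00 to 10.0, with an unadjusted p of 0.0466 and an adjusted p of 0.759 in Fisher's exact test). Interchromosomal PETs at that anchor numbered 16 and 8. The interchromosomal ratio was 1.46 at the anchor 4 kb inside the gene (0.887 to 2.43), the same at the anchor near the 3′ end (0.798 to 2.72), and 0.503 at the anchor 33.9 kb inside (0.186 to 1.25). Interchromosomal counts thus leaned the same way as the intrachromosomal ones at the 2 anchors with the most PETs in the gene and the opposite way at the last. Their part in the intrachromosomal difference was not tested.

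The anchor at 8289775-8290861 spans the LMO1 start. It had 1 intrachromosomal PET in shLUC and 9 in shBORIS, and 9 and 6 interchromosomal PETs. The intrachromosomal ratio was 8.07, with an interval from 1.12 to 354 (Fisher's exact test, unadjusted p = 0.0233, adjusted p = 0.652). Its single shLUC PET led to 8304880-8305959, 14.7 kb upstream of the start. In shBORIS it had 7 partners, 2 PETs each to the anchor 4 kb inside the gene and to 8349879-8351288, and 1 PET each to the other 5. None of its pairs was called in either table. The 3 anchors within 10 kb of the start together had 28 and 54 PETs, a ratio of 1.73 (1.08 to 2.83), with 50 and 54 interchromosomal PETs.

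Of the 21 anchors of the LMO1 window with at least 10 summed intrachromosomal PETs, 2 had an unadjusted p under 0.05, both described above, and 0 passed by Fisher's exact test (lowest adjusted p = 0.652). Genome-wide 6.43% had an unadjusted p under 0.05 and 0.0204% passed. By interchromosomal PETs 0 of 21 passed and 0 had an unadjusted p under 0.05 (lowest adjusted p = 0.964, Fisher's exact test), where 0.014% of all anchors passed and 5.56% had such a p. Of the pairs, 4 reached 10 summed PETs and 0 passed by Fisher's exact test (lowest adjusted p = 0.985; 0 with an unadjusted p under 0.05), against 0.0506% and 5.69% genome-wide. With an assumed negative binomial dispersion of 0.1, 0 of the 4 passed as well.

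**Figure D3:**
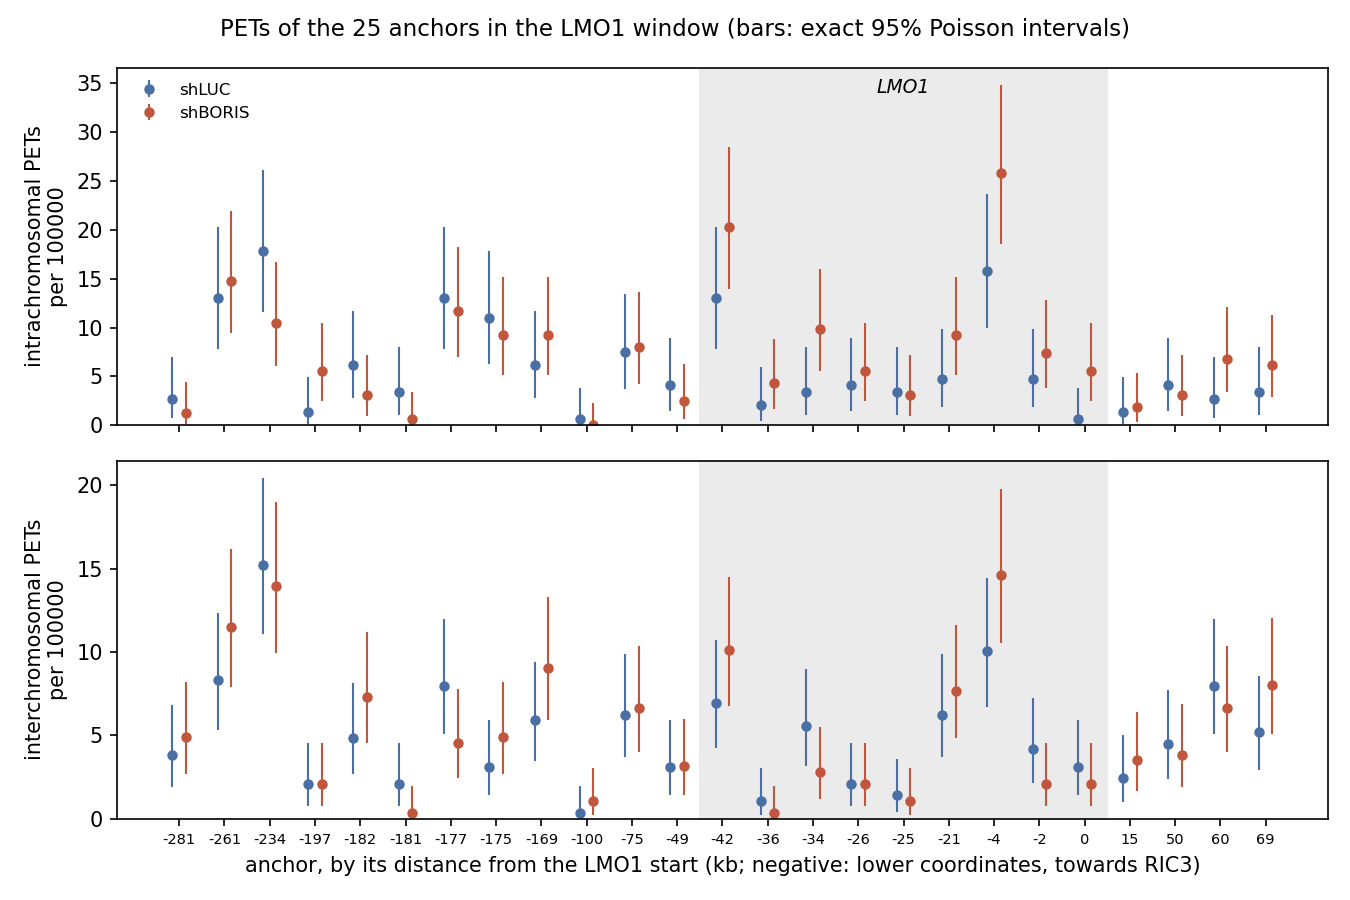
Intrachromosomal (top) and interchromosomal (bottom) PETs, scaled to the table's total of that kind, at the 25 anchors of the LMO1 window, ordered along the chromosome and labelled by distance from the LMO1 start in kb, for the pooled shLUC and shBORIS tables. Points are counts, bars are exact 95% Poisson intervals and grey marks the 9 anchors that overlap LMO1. Intrachromosomal points lie higher in shBORIS at 8 of those 9 anchors, with overlapping intervals at each.

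By destination, the ratio intervals of LMO1 anchors left out 1 for contacts within the gene and towards its upstream side, where STK33, which encodes a serine/threonine kinase, is the next gene. Pairs with both anchors in LMO1 had 24 and 49 PETs, a ratio of 1.83 (1.10 to 3.12). Those from LMO1 to the 4 anchors upstream of it within the window had 5 and 19, a ratio of 3.41 (1.23 to 11.7), spread over 15 pairs of at most 3 PETs per table. Contacts to anchors on the RIC3 side had 5 and 12 PETs (2.15, 0.705 to 7.79), and contacts that left the window had 18 and 19 (0.946, 0.470 to 1.91). The differences between these destinations were not tested.

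Beyond the window, 8587639-8588996 was the main partner. It contacted 10 anchors of the window at distances from 228.5 to 533.4 kb, with 12 PETs in shLUC and 15 in shBORIS, a ratio of 1.12 (0.490 to 2.62). Its contact with 8359117-8360475, across 228.5 kb, had 3 and 4 PETs and was called in both tables. Its contact with the anchor near the 3′ end of LMO1, across 341 kb, had 1 and 4 PETs (3.59, 0.355 to 177) and was called in shBORIS alone. The summed contact of this partner with LMO1 was 4 PETs in shLUC and 7 in shBORIS.

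Of the 19 interactions called in either table, 7 were called in both, 4 in shLUC alone and 8 in shBORIS alone, or 36.8%, 21.1% and 42.1%, against 34.8%, 27.4% and 37.8% of all called interactions. The 4 called in shLUC alone all lay on the RIC3 and TUB side. They joined 8027389-8028914 to 8113751-8115021 (6 and 2 PETs), 8053953-8055854 to 8107043-8108420 (4 and 0) and to 8120341-8121639 (4 and 2), and 8107043-8108420 to its neighbour at 8108627-8109342 (3 and 1). Of the 136 intrachromosomal pairs of the window, 24 had both anchors on that side and 75 had an end in LMO1. Of the 8 called in shBORIS alone, 6 had an end in LMO1. They include the contact of the anchor near the 3′ end with 8268401-8269673 (2 and 5 PETs), that of 8253278-8254016 with 8254617-8256235 (1 and 4), and that of the anchor 4 kb inside the gene with 8349879-8351288 (0 and 3). The remaining ones lay on the RIC3 and TUB side and joined 8091878-8092826 to 8027389-8028914 and to 8113751-8115021, with 0 and 3 PETs each. In the other table, 1 of the 4 and 3 of the 8 had 0 PETs.

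Summed over the anchors on the RIC3 and TUB side of LMO1, the ratio lay near 1. The 12 anchors there had 74 PETs in shLUC and 76 in shBORIS, a ratio of 0.921 (0.66 to 1.29), with 182 and 199 interchromosomal PETs. Contacts among these anchors had 53 and 48 PETs, a ratio of 0.812 (0.538 to 1.22). The contact of 8053953-8055854 with 8111824-8113262, across 57.6 kb, had 6 and 9 PETs and was called in both. So was that of 8027389-8028914 with 8120341-8121639, across 92.8 kb, with 4 and 9 PETs (2.02, 0.563 to 8.96, adjusted p = 0.985 in Fisher's exact test). The neighbours 8111824-8113262 and 8113751-8115021 had 6 and 6 PETs between them. The anchor at 8053953-8055854 had 26 and 17 PETs in all (0.586, 0.298 to 1.12, adjusted p = 0.865 in Fisher's exact test), and 8027389-8028914 had 19 and 24. At 8091878-8092826 the counts were 2 and 9 (4.03, 0.835 to 38.4, adjusted p = 0.789 in Fisher's exact test), with 6 interchromosomal PETs in each table. Of the 12 anchors, 4 had the higher scaled intrachromosomal count in shBORIS and 8 the lower.

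**Figure D4:**
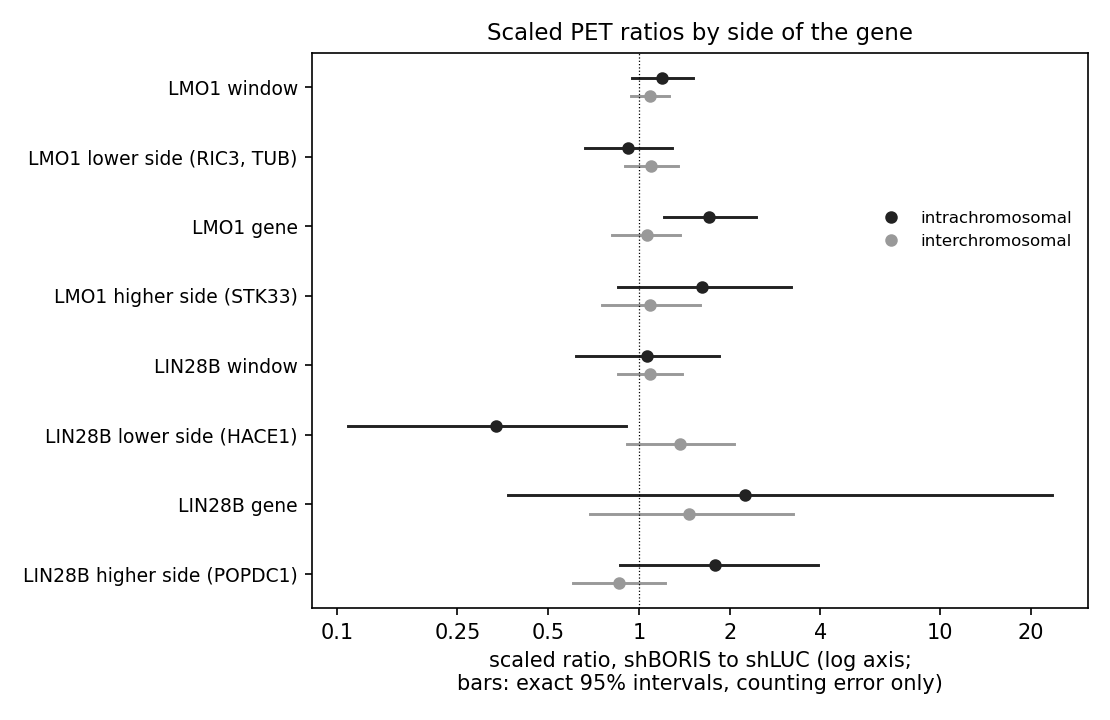
Scaled ratios of shBORIS to shLUC with exact 95% intervals on a log axis, for intrachromosomal (black) and interchromosomal (grey) PETs, over the LMO1 and LIN28B windows, the anchors overlapping each gene and those on its lower- and higher-coordinate side. The LMO1 gene, at 1.71, and the lower side of LIN28B, at 0.336, are the rows whose intrachromosomal interval leaves out 1. The lower side of LIN28B includes the anchors 0.6 kb and 14.7 kb upstream of the LIN28B start. Pairs that join the gene to a side, or the sides to each other, count in each row. The higher side of LMO1 thus shares 5 and 19 of its 16 and 29 intrachromosomal PETs with the gene.

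The LIN28B window held few contacts per anchor, with a median of 4 intrachromosomal PETs per anchor summed over the tables, where the genome's median was 9. LIN28B lies at 105404923-105531207 on the plus strand. Anchors flank its start on each side: 105403721-105404361 ends 0.6 kb upstream and 105405059-105405851 begins 0.1 kb downstream. A further anchor at 105388457-105390244 lies 14.7 kb upstream of the start. RefSeq gives a second LIN28B start 16.1 kb before the other on GRCh38.p14. With the same spacing on hg19, and the start used here as the downstream one, the anchor 14.7 kb upstream would cover the second start. No conversion between builds was made to check this. The shLUC table had 7 PETs at the 2 anchors within 10 kb of the start and the shBORIS table had 1, a ratio of 0.128 (0.00284 to 0.997), while their interchromosomal PETs numbered 10 and 12. Of the 7, 3 led to the anchor 14.7 kb upstream, 2 joined the 2 anchors to each other, 1 led to 105626960-105628382 and 1 left the region for an anchor over 2 Mb away. Without pairs over 2 Mb the ratio was 0.147 and its interval (0.00319 to 1.21) included 1. With anchors within 25 kb of the start the counts were 13 and 5. The ratio was then 0.345 and its interval (0.0962 to 1.03) included 1 as well.

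The interaction between the anchor 14.7 kb upstream and the one next to the start, with 3 and 0 PETs, was the 1 interaction called in shLUC in this window, and it was not called in shBORIS. That upstream anchor had 9 and 4 intrachromosomal PETs in all (0.398, 0.0896 to 1.43, adjusted p = 0.913 in Fisher's exact test) and 29 interchromosomal PETs in each table, the most of any anchor in the window. It also contacted 105307072-105307972 with 1 and 2 PETs across 81.8 kb, and 105525368-105526489, inside LIN28B near its 3′ end, with 0 and 2 PETs across 136.6 kb.

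The 4 anchors on the lower-coordinate side of LIN28B, where HACE1 is the next gene, had 16 PETs in shLUC and 6 in shBORIS, a ratio of 0.336 (0.108 to 0.904), with 44 and 60 interchromosomal PETs. This count includes the anchor next to the LIN28B start, with 7 and 1 PETs, and the one 14.7 kb upstream of that start, with 9 and 4. These 2 anchors share 3 shLUC PETs. Of the 16 and 6 PETs, 9 and 1 led out of the window, and 7 of the 9 were single PETs spanning over 2 Mb. Without such spans the counts were 9 and 6 and the ratio was 0.588 (0.172 to 1.85). HACE1 itself has no hg19 position in the sources used here. On GRCh38.p14 its starts are at 104859919 and 104859546, and the downstream LIN28B start is at 104957107. If the spacing is the same on hg19 and the LIN28B start used here is the downstream one, both HACE1 starts lie in 105307072-105307972. That anchor lies 97.0 kb upstream of the LIN28B start. No conversion between builds was made. The 2 anchors farthest from LIN28B on that side had 3 and 1 PETs (105130577-105131682) and 1 and 2 PETs (105307072-105307972). No contact there, apart from the one at the LIN28B start, was called in either table.

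On the far side of LIN28B, towards POPDC1, the counts leaned the other way. The 7 anchors there had 12 and 24 PETs, a ratio of 1.79 (0.862 to 3.93), with 74 and 63 interchromosomal PETs. The anchor with the most was 105535071-105536426, past the end of the gene, with 4 and 10 PETs (2.24, 0.646 to 9.79, adjusted p = 0.952 in Fisher's exact test) and 20 and 10 interchromosomal PETs. In shBORIS it had called interactions with 105810581-105811763 across 275.4 kb (0 and 4 PETs) and with 105871656-105872789 across 336.5 kb (0 and 3 PETs). Its contact with 105850415-105852178, which lies between these partners, had 2 PETs in each table. The other interaction called in shBORIS joined the neighbours 105582645-105583613 and 105583906-105585334, with 2 and 4 PETs.

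**Figure D5:**
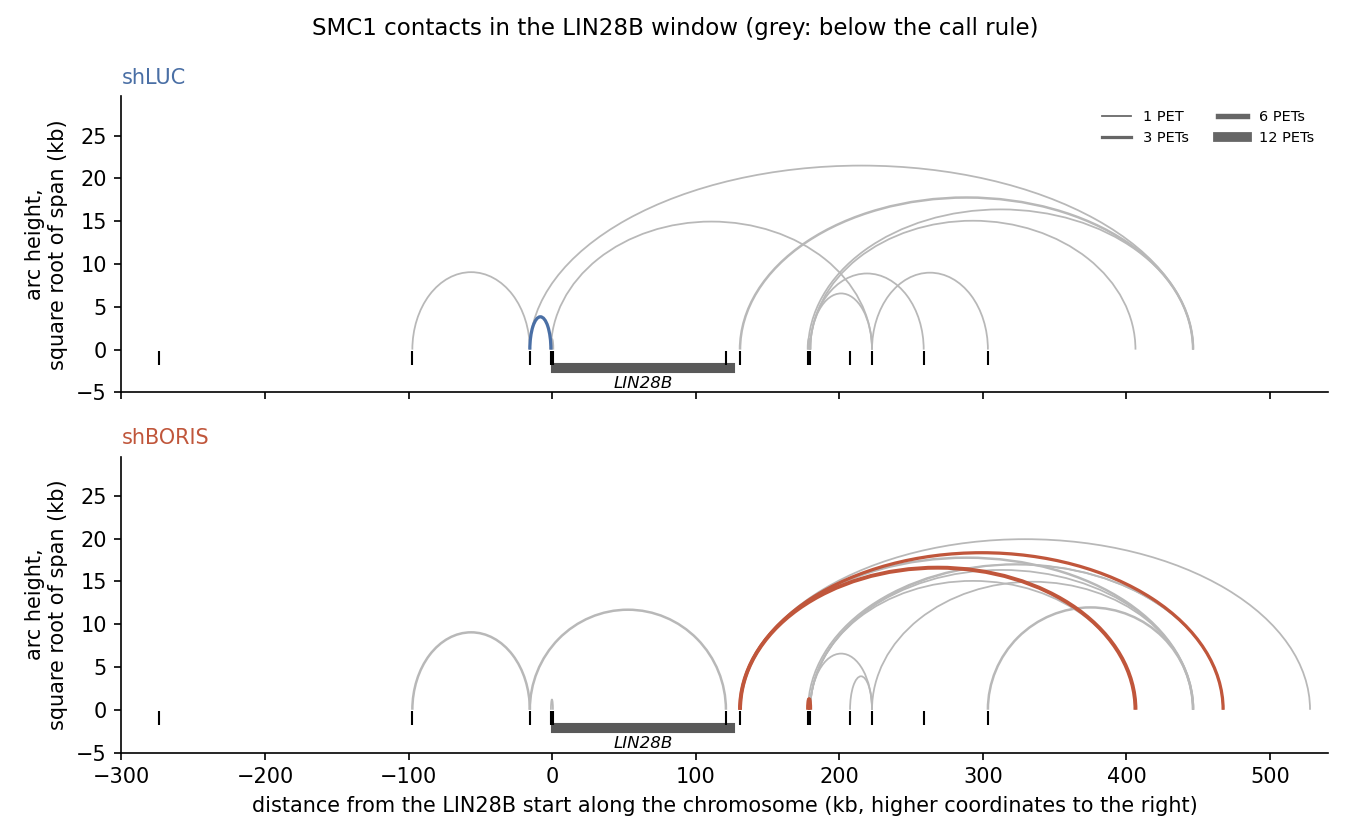
Contacts of the LIN28B window in shLUC (top) and shBORIS (bottom) by distance from the LIN28B start in kb along the chromosome. Arcs are anchor pairs within the plotted range, their width grows with PETs, coloured arcs were called and grey ones were not, ticks are the anchors of the window and the bar is LIN28B. The short called arc at the start, with 3 and 0 PETs, is in the top panel, and the long called arcs from the end of the gene, with 4 and 3 PETs, are in the bottom panel.

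By distance, the LIN28B window had 7 and 20 PETs at 100 to 500 kb, a ratio of 2.56 (1.04 to 7.17), and 9 and 2 PETs over 2 Mb, a ratio of 0.199 (0.0209 to 0.962), against 0.981 and 0.886 genome-wide. Around LMO1 the PETs of 20 to 100 kb dominated, with 49.2% of the total in shLUC and 50.3% in shBORIS, where the genome had 28.6% and 29.5%. The ratio there was 1.22 (0.872 to 1.71), and 1.51 (0.866 to 2.68) under 20 kb. Of 4 interactions called around LIN28B in either table, 0 were called in both, against 34.8% of all called interactions. In shLUC alone 1 was called and in shBORIS alone 3, or 25% and 75%, against 27.4% and 37.8%. Called were 1 of 22 listed pairs in shLUC (4.55%) and 3 of 20 in shBORIS (15%), against 12.9% and 14.1% genome-wide. No LIN28B pair reached 10 summed PETs. Of 3 anchors that did, 0 passed by Fisher's exact test (lowest adjusted p = 0.913; 0 with an unadjusted p under 0.05). At 105663264-105664094 interchromosomal PETs numbered 10 and 2 (Fisher's exact test, unadjusted p = 0.0386, adjusted p = 0.846). It was the 1 anchor of 12 tested with an unadjusted p under 0.05, and 0 passed. Of all anchors tested by interchromosomal PETs, 5.56% had such a p and 0.014% passed.

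Around BARD1 the pools held 4 intrachromosomal PETs on 3 pairs. Of these, 0 were called in either table, against 12.9% of all listed pairs in shLUC and 14.1% in shBORIS. The anchor at 215673500-215674249 spans the position of about 215674000 taken as the BARD1 start. It had 0 PETs in shLUC and 1 in shBORIS, to 214670612-214671437, across 1002.9 kb, and 5 and 6 interchromosomal PETs. No other anchor overlapped the gene, at about 215593000-215674000 on the minus strand. The other anchor of the window, 215866905-215868005, lies 192.9 kb upstream and had 2 and 1 PETs. Its 2 shLUC PETs led to 216134080-216135344, across 267.3 kb, and its shBORIS PET to an anchor on the same chromosome over 2 Mb away, with 9 and 11 interchromosomal PETs. Without the pair over 2 Mb the ratio of the window was 0.441 (0.00747 to 8.47). Of the BARD1 anchors 0 reached 10 summed intrachromosomal PETs, and a difference at BARD1 was not detectable at this depth.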

How the data were processed

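SMC1 ChIA-PET of resistant Kelly cells was read from 1 deposited table per group, which pools 2 libraries. Per the submitters' processing notes, tools included cutadapt 1.8 and Bowtie, on hg19. The program that set anchors and scored pairs is not given in the sources used here. PET counts are whole numbers from 1, named so per the file headers. The authors' hypergeometric p-value was deposited too and was not used. The deposited Bayes probability is a fraction between 0 and 1. The shBORIS table lacks a header, so its columns were assumed to follow those of shLUC. Starts were taken as zero-based, which no source states, and are printed plus 1.

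Windows and gene positions are those of the rule that chose the members, known with earlier results of these data, as were the lists and tests. Pairs, anchors and windows with at least 10 summed PETs were compared by two-sided Fisher's exact test against the other PETs of the same kind, with Benjamini-Hochberg adjustment over the genome and a threshold of 0.05. Named were the 5 strongest called pairs, the 3 strongest anchors and the anchors at gene starts per window, and pairs of small p; others were chosen after their values were seen. Lists of partner genes needed hg19 positions and were not analysed here. Gene names come from RefSeq order on GRCh38.p14, and all 4 genes had a promoter entry. Scripts were tested on simulated data. Python 3.11.15, pandas 2.3.3 and scipy 1.17.1 were used.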

Additional observations from a re-analysis of the deposited data

How the results depend on the processing

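Of 66 alternatives over 27 results, 57 kept their side of the threshold, stayed inside the main interval or stayed within 1.5 times the main count, and 9 did not. All 9 are counts of calls. With at least 5 PETs per call, LMO1 had 5 calls in shLUC and 6 in shBORIS, and LIN28B had 0 and 0. With at least 2 PETs, LIN28B had 2 and 7 calls and BARD1 had 1 in shLUC. With 0 PETs required in the other table, 1 LMO1 interaction was called in shLUC alone and 3 in shBORIS alone. These follow from the stricter or looser minimum. When shBORIS was thinned to the depth of shLUC, 13 calls were left around LMO1 (median of 20 draws, 12 to 15). The Bayes probability kept its value at full depth, so only the PET minimum was applied to the thinned counts. The LMO1 gene ratio ranged from 1.68 to 1.94 under other totals and without pairs over 2 Mb. In windows of the gene's width it was 1.52 without pairs under 20 kb (Fisher's exact test, adjusted p = 0.717) and 1.9 without pairs over 2 Mb (adjusted p = 0.263), settings chosen after seeing the data, as were those without long spans for the sides of the genes. No ratio exists for the BARD1 gene, with 0 shLUC PETs, or for BARD1 pairs with both anchors inside. No paired analysis was possible because the 2 libraries of a group come as 1 summed table, which leaves neither a replicate block nor a replicate to leave out. Few PETs limit every comparison around LIN28B and BARD1.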
